A study of Mus musculus with 17 samples.

Results

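The miR-34 and miR-449 miRNAs were followed in exosomes recovered from the feces of mice that develop bowel inflammation. The members were chosen by name, as 10 listed arms of the hairpins miR-34a, miR-34b, miR-34c and miR-449a to miR-449c, and 7 of them were among the 1487 smRNAs (small RNAs) of the count table. The other 3, miR-34a-3p, miR-34c-5p and miR-449b, were not analysed here. Every library came from an IL-10 KO mouse on the C57BL/6J background, a strain without the anti-inflammatory cytokine interleukin 10, obtained at 4 weeks of age and housed singly. The start-point group held 10 libraries, 7 from males and 3 from females, and the end-point group held 7, of which 5 were from males and 2 from females. The labels give neither the age at each time point nor a disease score, and wild-type libraries were not analysed here. Of the 10 mice, 6 had libraries at both time points, and end-point libraries 1 and 2 both carry the label of mouse 1. Whether both came from that mouse could not be checked, and the values for mouse 1, the counts of mice and the mouse block rest on that label. Exosomes were precipitated with ExoQuick TC, and a small RNA library does not measure the deleted Il10 transcript, so the knockout was not checked here. No library lacked the knockout by its label, so all comparisons below are between time points or sexes within that genotype.

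A miRNA hairpin is cut into a 5p and a 3p arm, and the arm loaded into Argonaute pairs with target mRNAs mainly through its seed, bases 2 to 8. Mir34a and the Mir34b and Mir34c pair are direct transcriptional targets of the tumour suppressor p53, and their 5p arms repress cell cycle and survival genes such as Cdk6, Ccnd1 and Bcl2. The miR-449 miRNAs carry the same 5p seed, respond to E2F1, and are best known from multiciliated cells, where they act with miR-34 in building cilia. miR-34a is also known to target Notch1.

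The mature sequences are shown because they divide the members into seed groups that the results below follow. They are RefSeq sequences of build GRCm38.p6, found for all 7 members, written 5′ to 3′ with the seed in capitals.

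mmu-miR-34a-5p: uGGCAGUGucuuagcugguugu
mmu-miR-34b-5p: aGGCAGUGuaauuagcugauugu
mmu-miR-449a-5p: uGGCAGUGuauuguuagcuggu
mmu-miR-449c-5p: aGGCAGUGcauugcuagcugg
mmu-miR-34b-3p: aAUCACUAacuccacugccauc
mmu-miR-34c-3p: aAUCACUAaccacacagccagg
mmu-miR-449a-3p: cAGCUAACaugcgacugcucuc

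All 4 5p members carried the seed GGCAGUG, and no other of the 1254 miRNAs of the table with a reference sequence did. The arms miR-34b-3p and miR-34c-3p shared the seed AUCACUA, found in no other of those 1254, and were identical in their first 10 bases and at 17 of 22 positions. The 5p arms miR-34a-5p and miR-449a-5p shared their first 9 bases and 15 of 22 positions, and miR-449a-5p and miR-449c-5p were identical at 18 of 21. How the authors assigned reads that fit closely related arms is not given in the sources used here, so the split between such pairs carries that uncertainty. Lengths ran from 21 to 23 bases, so levels of different arms are compared as CPM, counts scaled to the library total, with no length correction.

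Mir34a lies on the plus strand of chromosome 4 at 150068454 to 150068555 and overlaps an exon of the uncharacterised transcript Gm37795 in GENCODE vM21. Mir34c and Mir34b lie on the minus strand of chromosome 9 at 51103034 to 51103110 and 51103562 to 51103645. They are 451 bases apart, within an intron of Btg4, which is on the opposite strand. Mir449c and Mir449a lie on the plus strand of chromosome 13 at 113035983 to 113036091 and 113037534 to 113037624, both intronic in Cdc20b, on its strand, and 1442 bases apart. The Mir34b hairpin is shown with its arms in capitals, the 5p arm first, since the arm near its 3′ end held most of the counts.

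Mir34b: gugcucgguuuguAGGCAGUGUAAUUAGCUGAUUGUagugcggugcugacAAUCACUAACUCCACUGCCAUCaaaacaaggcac

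Library totals ran from 87527 to 178075 counts at the start-point and from 32320 to 161862 at the end-point, so 3 counts, taken as the smallest level a library can show, equalled 16.8 to 92.8 CPM. All libraries under 75000 counts, 1, 3 and 7, were from the end-point, so depth was confounded with time point there and the 2 cannot be told apart. Between any pair of libraries chi-square divided by its degrees of freedom reached 8.93 or more, and none was treated as a repeat of another. PCR copies can raise this value, so it cannot exclude that 2 libraries came from 1 sample. The labels call the source fecal exosomes. Epithelial marker miRNAs summed to 3778 to 19932 CPM in start-point and 3032 to 38181 CPM in end-point libraries (9 of 10 listed in the table). Leukocyte markers summed to 911 to 3690 and 457 to 3234 CPM (5 of 7), smooth muscle markers to 400.0 to 2169 and 334 to 12136 CPM (3 of 4), and red cell markers to 149 to 1006 and 12.4 to 530 CPM (2 of 3). No listed marker in the table was at 0 throughout a group, although the red cell miRNA miR-451a had 0 counts in 8 of 10 start-point and 3 of 7 end-point libraries. Members of these lists moved in different directions. Mean miR-451a was 6.54 CPM at the start-point and 90.0 CPM at the end-point, with 4 of 7 end-point libraries above every start-point library and no test, where miR-486a-5p, the other red cell marker, had 417 and 170 CPM. The neutrophil miRNA miR-223-3p rose, by 2.38 ± 0.55 (SE) on the log2 scale with an edgeR adjusted p of 0.00187, and was higher in 6 of 6 mice. With mouse as a block it was not called (1.37, adjusted p 0.211). Of the 4 leukocyte markers tested, miR-223-3p was the 1 called higher. Over all smRNAs tested, 17.4% were called higher and 16.3% lower, so these counts are a description of the list. The 1 called lower was miR-342-3p (-1.60, edgeR adjusted p 0.00663), which fell in 6 of 6 mice. The block, a fit that called 8.19% of smRNAs, left miR-342-3p uncalled too (-1.61, edgeR adjusted p 0.124). Counts of mice use CPM on library totals, and their share over all smRNAs is not given here. The leukocyte sum had medians of 1758 CPM at the start-point and 689 CPM at the end-point, without a test. Exosomal RNA mixes sources, so fewer vesicles from a cell type and less of a miRNA per vesicle cannot be told apart.

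The 7 arms together were a minor part of every library. Their summed counts ran from 109 to 706 (median 373) at the start-point and from 58 to 220 (median 111) at the end-point. In CPM the sum ran from 1245 to 4659 with a median of 2772 at the start-point, and from 377 to 2283 with a median of 1190 at the end-point. The summed 3p arms had medians of 1917 CPM at the start-point and 391 CPM at the end-point. The summed 5p arms, which share 1 seed, had medians of 695 and 530 CPM, and their highest library was at the end-point (2082 against 955 CPM). These sums are descriptions without a test.

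**Figure D1:**
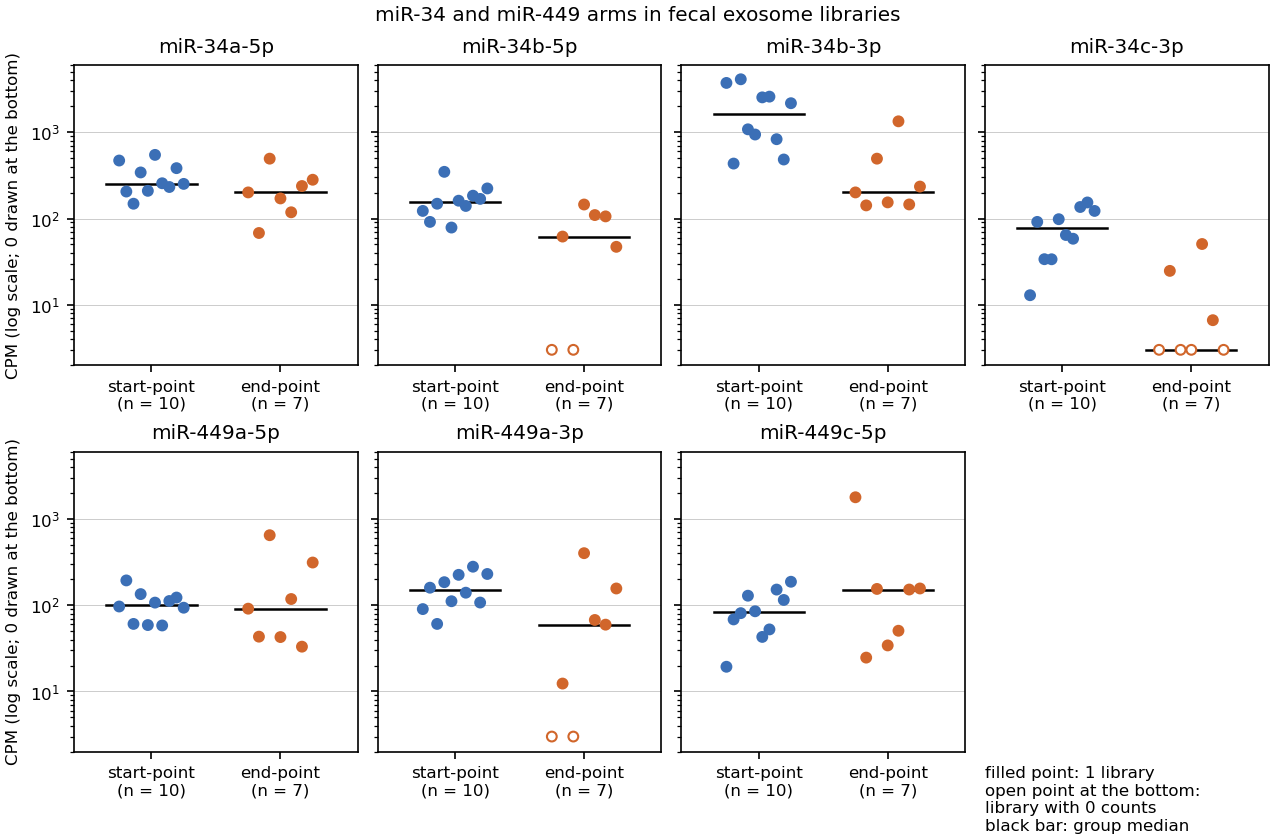
Level of each of the 7 arms in CPM on a log scale, by library and time point, with black bars at group medians and open points at the bottom for libraries with 0 counts. Start-point values of miR-34b-3p run from 434 to 4126 CPM and 5 of 7 end-point values lie below all of them, while 1 end-point library stands at 1790 CPM of miR-449c-5p.

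Set against the start-point, the question named in the title being disease progression, 1 tested arm fell, 1 rose and 4 did not pass. The arm that fell was miR-34b-3p, the most abundant member, and the arm that rose was miR-449c-5p, whose rise rested on a single library. Called means an adjusted p under 0.05 in edgeR's quasi-likelihood test over all 1270 smRNAs tested, of which 33.7% were called (17.4% higher and 16.3% lower), so 2 of 6 arms called is close to the background. The median log2 fold change of the 6 arms was -0.03, beside -0.18 over all smRNAs tested. With library totals only in place of TMM factors, the median of all smRNAs moved to -0.65 and the same number of members, 2 of 6, was called. The seventh member, miR-34c-3p, had too few counts for the filter. For none of the 7 did the CPM of the time points fail to overlap, where 5.59% of tested smRNAs showed no overlap.

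Start-point libraries held 38 to 611 counts of mmu-miR-34b-3p with a median of 215, and end-point libraries 11 to 159 with a median of 18. In CPM the start-point values ran from 434 to 4126 with a median of 1630, and the end-point values from 142 to 1342 with a median of 201. End-point libraries 3 and 5 were the 2 that reached into the start-point range, at 495 (95% Wilson interval 305 to 804) and 1342 (1149 to 1567) CPM, and the other 5 lay below every start-point library. Mean and SD were 1896 ± 1341 CPM over 10 start-point and 388 ± 439 CPM over 7 end-point libraries. The log2 fold change was -1.95 ± 0.64 (SE), and its edgeR adjusted p was 0.0219.

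The level of miR-34b-3p was lower at the end-point in 6 of 6 mice with libraries at both times. This count uses CPM on library totals, a scaling under which the median log2 fold change of all smRNAs was -0.65. The uncalled miR-125a-5p and miR-30d-5p were also lower in 6 of 6 mice, and the share over all smRNAs is not given here. In CPM, miR-34b-3p by mouse was as follows. It went from 3742 to 172 CPM in mouse 1 (the mean of its end-point libraries), from 4126 to 495 in mouse 3, from 943 to 154 in mouse 5, from 2595 to 1342 in mouse 7, from 833 to 146 in mouse 9 and from 484 to 235 in mouse 11. Mice 7 and 11 showed the smallest ratios of start to end. With mouse as a block its log2 fold change was -2.19 and the edgeR adjusted p 0.0528, so it was not called, in a fit that called 8.19% of smRNAs. When the 3 libraries under 75000 counts were left out (33.6% of smRNAs called, and 0 of 7 members), the values were -1.37 and 0.174, and in male libraries only -1.90 and 0.085. Leaving out end-point library 4 or 7 also ended the call, with edgeR adjusted p of 0.0569 and 0.062, whereas without end-point library 5 the log2 fold change was -2.86 with an adjusted p of 0.00184. The end-point libraries under 75000 counts held 201, 495 and 235 CPM, and the 4 deeper ones 142, 154, 1342 and 146 CPM. With all libraries, where 17.4% of smRNAs were called higher and 16.3% lower, 3 of the 9 epithelial markers tested were called higher and 4 lower. These counts were 0 and 2 with the block and 3 and 1 without the shallow libraries, and the part of cell sources and of depth in this difference was not tested.

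**Figure D2:**
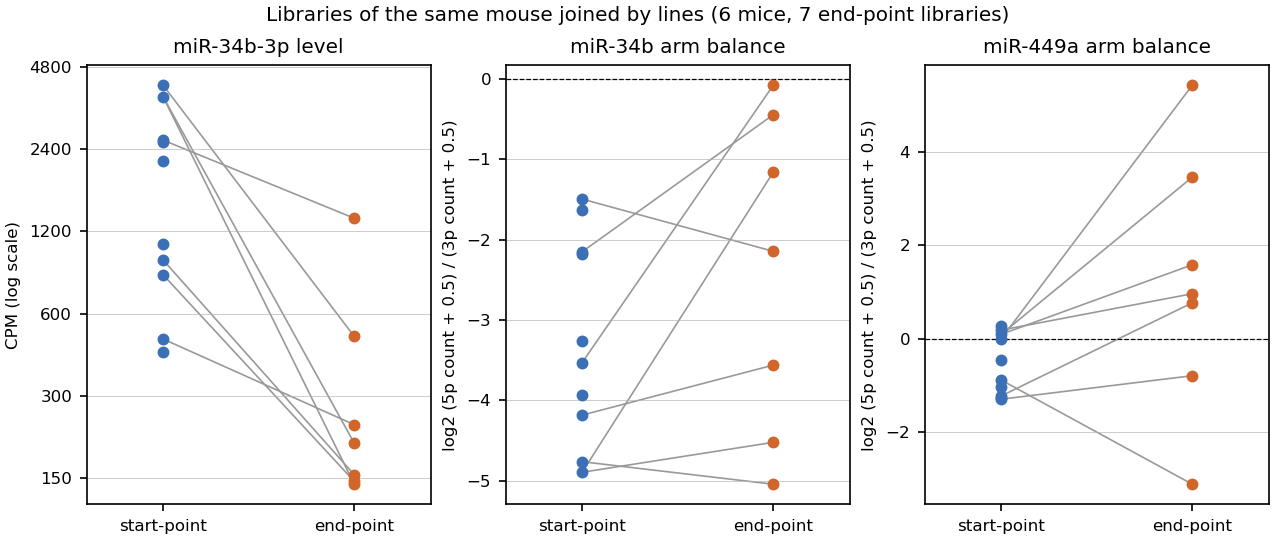
Values of the same mouse joined by lines, for the CPM of miR-34b-3p (log scale) and for the log2 ratio of 5p to 3p counts of miR-34b and miR-449a. All lines of miR-34b-3p descend, whereas the miR-34b ratio moved toward the 5p arm in 4 of 6 mice and the miR-449a ratio in 5 of 6.

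The other arm of that hairpin, miR-34b-5p, which carries the seed of miR-34a, had 8 to 62 counts at the start-point (median 22) and 0 to 17 at the end-point (median 10). Its CPM ran from 78.6 to 348 with a median of 155 at the start-point and from 0 to 145 with a median of 61.8 at the end-point, with 0 counts in the shallow libraries 1 and 3. The groups overlapped, and 4 of 7 end-point libraries were below every start-point library. Its log2 fold change was -0.44 ± 0.62 (SE) with an edgeR adjusted p of 0.603. In the deeper libraries alone it was 0.40 with 0.422.

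A comparison of the arms within a library needs no scaling between libraries. The 3p arm outnumbered the 5p arm of miR-34b in 10 of 10 start-point and 7 of 7 end-point libraries. The mean log2 ratio of 5p to 3p counts, with 0.5 added to each, was -3.20 ± 1.27 (SD) over 10 start-point and -2.42 ± 1.98 (SD) over 7 end-point libraries. The difference of 0.78 was within the spread between libraries. Its exact permutation p, two-sided, was 0.330, and the same after adjustment over the 2 hairpins tested. End-point libraries 4, 6 and 2, with 17 against 18, 16 against 22 and 10 against 23 counts of the 5p and 3p arms, had ratios above every start-point library. The shallow libraries 1 and 3, with 0 counts of the 5p arm, had -4.52 and -5.04. With the shallow libraries 1, 3 and 7 left out, the difference was 1.89 with an exact permutation p of 0.036, or 0.0719 after adjustment over 2 hairpins. Within mice it was 1.15, and the exact sign-flip permutation p was 0.188, where the smallest possible was 0.03125.

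Of Mir34c only the 3p arm was analysed here. Start-point libraries held 2 to 20 counts of mmu-miR-34c-3p (median 9), or 12.9 to 154 CPM with a median of 77.9. At the end-point it had 0 counts in libraries 1, 3, 4 and 7 and 4, 6 and 1 in libraries 2, 5 and 6, so most end-point values were at or under what the depth can show. The CPM was lower in 6 of 6 mice, but not each pair could show a fall. Mouse 1 had 12.9 CPM, or 2 counts, at the start-point, and 0 and 24.7 CPM in its end-point libraries. Mouse 3 had 33.8 CPM and then 0 in a library where 3 counts equal 92.8 CPM. With no filter on low counts its log2 fold change was -1.60 ± 0.83 (SE) with an edgeR adjusted p of 0.137, so the difference was not called. Without the shallow libraries, where it passed the filter, the values were -0.73 ± 0.68 (SE) and 0.41.

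The arm best known as a p53 target, mmu-miR-34a-5p, was not called. It had 18 to 73 counts at the start-point (median 39.5) and 11 to 36 at the end-point (median 16), and no library was at 0. In CPM it ran from 149 to 548 with a median of 254 before, and from 68.0 to 495 with a median of 201 after. The ranges overlapped widely, with 2 of 7 end-point libraries below every start-point library, and it was lower in 4 of 6 mice. Its log2 fold change was -0.22 ± 0.38 (SE) with an edgeR adjusted p of 0.68. It was negative and not called in all 25 alternatives, from -0.51 to -0.06. A p that misses the threshold does not show that the level stayed the same.

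Within the miR-449 group, mmu-miR-449c-5p had 3 to 26 counts at the start-point (median 12.5) and 4 to 98 at the end-point (median 6). Its CPM ran from 19.4 to 187 with a median of 83.1 at the start-point and from 24.7 to 1790 with a median of 152 at the end-point. End-point library 1 alone held 98 counts, or 1790 CPM (95% Wilson interval 1469 to 2181), and the other 6 end-point libraries, from 24.7 to 157 CPM, lay within the start-point range. Mean and SD were 93.3 ± 52.3 CPM over 10 start-point and 338 ± 643 CPM over 7 end-point libraries. The log2 fold change was 1.91 ± 0.54 (SE), and its edgeR adjusted p was 0.00933. Without end-point library 1 the log2 fold change was 0.51 with an adjusted p of 0.314. With mouse as a block it was 1.04 with 0.417, and with the libraries under 75000 counts left out 0.58 with 0.288, so the call rested on that library. The other end-point library labelled mouse 1 held 4 counts, or 24.7 CPM. The level was higher in 4 of 6 mice and lower in 2, with mouse 9 at 152.1 CPM before and 152.3 after.

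The table also lists miR-449c-3p, the other arm of that hairpin, which is not among the 10 members and is given for comparison. It had 7 to 32 counts at the start-point and 0 to 18 at the end-point, with 0 counts in libraries 1 and 3. Library 1 therefore held 98 counts of the 5p arm of Mir449c and 0 of its 3p arm, where the start-point libraries had 3 to 26 and 7 to 32. The log2 fold change of miR-449c-3p was -1.09 ± 0.64 (SE) with an edgeR adjusted p of 0.193. The call was gained without end-point library 5 (-2.01, adjusted p 0.0216) and with library totals only (-1.74, 0.038).

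The arms of Mir449a had like levels at the start-point. The 5p arm, miR-449a-5p, had 9 to 24 counts there (median 13.5) and 5 to 21 at the end-point (median 7), or 58.3 to 194 CPM with a median of 102, and 33.1 to 650 CPM with a median of 91.3. The highest end-point values, 650 and 313 CPM, came from the shallow libraries 3 and 7, and 3 of the other 5 lay below every start-point library. Its log2 fold change was 0.89 ± 0.44 (SE) with an edgeR adjusted p of 0.112, and 0.23 with 0.673 in the deeper libraries alone. Without end-point library 3 it was 0.46 with 0.420. It was higher in 3 of 6 mice and lower in 3.

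The 3p arm, miR-449a-3p, had 9 to 35 counts at the start-point (median 19) and 0 to 47 at the end-point (median 8). Its CPM ran from 60.8 to 280 with a median of 150 at the start-point, and from 0 to 402 with a median of 59.6 at the end-point. End-point library 4 was the 1 above every start-point library, and libraries 1, 2, 3 and 6 lay below all of them. Its log2 fold change was 0.16 ± 0.69 (SE) with an edgeR adjusted p of 0.876, and the sign changed to -1.10 without end-point library 4, to -0.61 with library totals only and to -0.79 with mouse as a block.

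The mean log2 ratio of 5p to 3p counts of Mir449a was -0.56 ± 0.65 (SD) over 10 start-point libraries, where the 5p arm was ahead in 3. It was 1.19 ± 2.77 (SD) over 7 end-point libraries, where the 5p arm was ahead in 5. Start-point ratios ran from -1.29 to 0.27. End-point ratios ran from -3.11 in library 4, with 5 counts of the 5p arm and 47 of the 3p arm, to 5.43 in library 3, with 21 and 0. The difference of 1.75 had a two-sided exact permutation p of 0.0672, or 0.134 after adjustment over 2 hairpins, so it was not called. Without end-point library 4 it was 2.46 with an exact permutation p of 0.00212, or 0.00425 adjusted, without library 6 it was 2.08 with 0.0358, or 0.0717 adjusted, and without the 3 libraries under 75000 counts 0.17 with 0.800.

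The order of the members is described without a test. At the start-point miR-34b-3p had the highest level of the 7 arms in 10 of 10 libraries, on average 2.34 ± 1.26 (SD, n = 10) log2 units above miR-34a-5p, which came next. After it came, by median CPM, miR-34b-5p, miR-449a-3p, miR-449a-5p, miR-449c-5p and miR-34c-3p. The step from miR-34a-5p to miR-34b-5p, 0.87 ± 0.71 log2 units, was larger than its SD, and the 4 later steps, from 0.08 to 0.56, were each smaller than theirs. At the end-point the highest arm was miR-34b-3p in libraries 2 and 5, miR-449a-5p in libraries 3 and 7, miR-449c-5p in library 1, miR-449a-3p in library 4 and miR-34a-5p in library 6. There, every step between neighbours in the order was smaller than its SD over the 7 libraries.

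The share of miR-34b-3p in the counts of the 7 arms ran from 31.5% (95% Wilson interval 25.5 to 38.2%) to 88.6% (86.0 to 90.7%) at the start-point, with a median of 62.9%. At the end-point it ran from 8.8% (4.98 to 15.1%) to 72.3% (66.0 to 77.8%), with a median of 19.7%. End-point library 5 stood with the start-point libraries, and library 2, at 37.7% (26.6 to 50.3%), lay inside their range. The intervals cover counting error only, and reads are not known to be independent molecules.

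**Figure D3:**
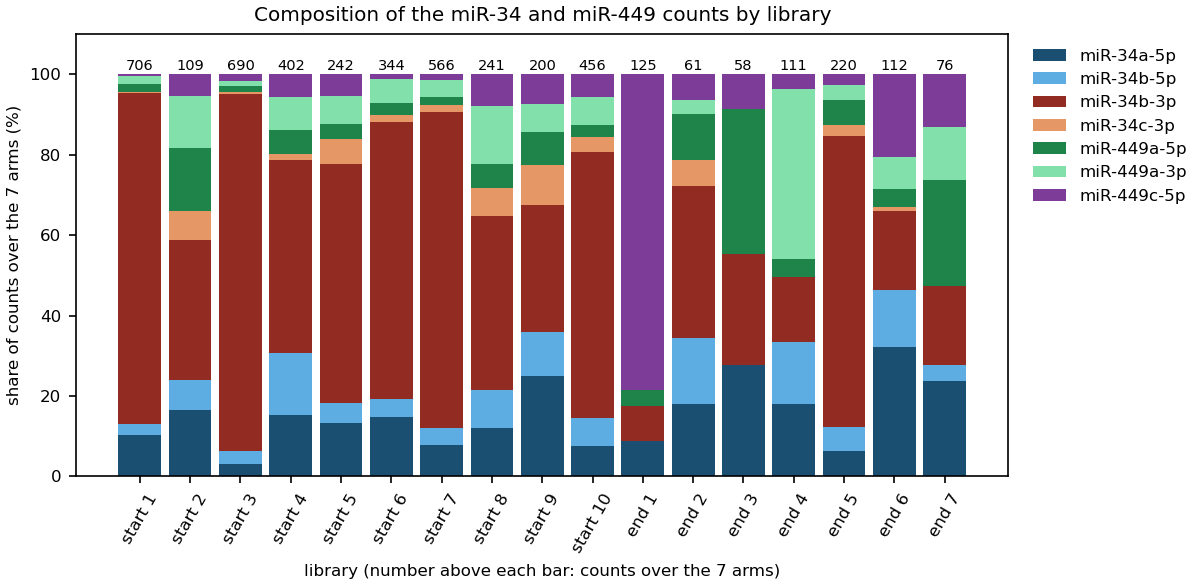
Share of each arm in the counts of the 7 arms, 1 bar per library, with the summed count above each bar. The share of miR-34b-3p is the largest in all 10 start-point bars and in the bars of end-point libraries 2 and 5, and miR-449c-5p fills most of the bar of end-point library 1.

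Female and male libraries, with time point as a covariate, did not differ past the threshold in any tested arm (0 of 6, beside 0% of all smRNAs, in edgeR's quasi-likelihood test). Over all 1270 smRNAs edgeR called 0, with 131 at an unadjusted p under 0.05, and DESeq2 called 35. Only miR-34b-3p among the arms had an unadjusted p under 0.05, at 0.0131, with a log2 difference of -1.72 ± 0.64 (SE, female minus male). Its adjusted p was 0.361 in edgeR and 0.0511 in DESeq2, which gave no adjusted p for 4 of the arms. Start-point mean and SD were 2210 ± 1432 CPM over 7 male and 1165 ± 894 CPM over 3 female libraries, and end-point ones 467 ± 510 CPM over 5 and 190 ± 63.1 CPM over 2. With library totals only the log2 difference was -1.06 at an unadjusted p of 0.0983. Libraries of 1 mouse at the 2 time points are not independent in this comparison. The interaction of sex and time point called 0 smRNAs in edgeR, with 86 at an unadjusted p under 0.05, and 2 in DESeq2. No tested arm was called in edgeR, and 0 of 6 had an unadjusted p under 0.05.

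Other miRNAs whose transcription or processing is raised by p53 moved in both directions. Of 11 listed, 10 were in the table and 8 were tested, of which 3 rose, 2 fell and 3 did not pass, with a median log2 fold change of 0.76 beside -0.18 over all smRNAs. With 33.7% of all smRNAs called, 5 of 8 is a description of this list. The 2 that fell, miR-192-5p and miR-194-5p, are abundant epithelial miRNAs made from shared transcripts. miR-192-5p ran from 448 to 6313 CPM (median 1977) at the start-point and from 92.8 to 291 CPM (median 235) at the end-point, with no overlap, and a log2 fold change of -2.77 ± 0.62 (SE, edgeR adjusted p 0.00181). miR-194-5p had -2.31 ± 0.69 (SE) and 0.0124.

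The 3 that rose were miR-215-5p, whose seed is that of miR-192-5p, miR-143-3p, a miRNA of smooth muscle and stroma, and miR-141-3p of the epithelial miR-200 family. For miR-143-3p, values ran from 122 to 1222 CPM (median 525) at the start-point and from 274 to 11776 CPM (median 2174) at the end-point, with 5 of 7 end-point libraries above every start-point library and a log2 fold change of 2.87 ± 0.55 (SE, edgeR adjusted p 0.000585). The log2 fold changes of miR-215-5p and miR-141-3p were 3.51 ± 0.74 (SE) and 2.86 ± 0.65 (SE), with edgeR adjusted p of 0.00109 and 0.00187. The 3 not called ran from -0.26 for miR-145a-5p, also a smooth muscle marker, to 1.17. The remaining smooth muscle marker of the table, miR-133a-3p, is not on this list. It was called lower (-1.94, edgeR adjusted p 0.0446), and was not called with mouse as a block (-0.73, 0.510). With mouse as a block, where 8.19% of smRNAs were called, only miR-143-3p of the list was called, with an edgeR adjusted p of 0.048, and miR-192-5p had 0.0567. Leaving out the shallow libraries, where 33.6% of smRNAs were called, 7 of 10 were called, 5 higher and 2 lower, and miR-194-5p was no longer among them (adjusted p 0.0933). The 2 lower were miR-192-5p (-2.17, edgeR adjusted p 0.0320) and miR-145a-5p (-2.18, 0.0100). The epithelial and smooth muscle marker lists given above share 5 and 2 listed miRNAs with this one, and the part of cell composition in these changes was not tested.

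Of 6 miRNAs reported to target the mRNA of p53 itself, 5 were tested and 0 were called by edgeR, at an unadjusted p under 0.05 by edgeR, or by DESeq2, beside 33.7% of all smRNAs called by edgeR and 41% by DESeq2. Their log2 fold changes ran from -0.72 to 0.75, and edgeR adjusted p from 0.191 to 0.829. Without the libraries under 75000 counts 0 of 5 were called, but the range was wider. There miR-504-5p had -1.43 (edgeR adjusted p 0.0696) and miR-125b-5p 1.23 (0.0720). The untested miR-33-5p had a mean of 108 CPM at the start-point and 11.8 CPM at the end-point, with 0 counts in 4 of 7 libraries there.

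**Figure D4:**
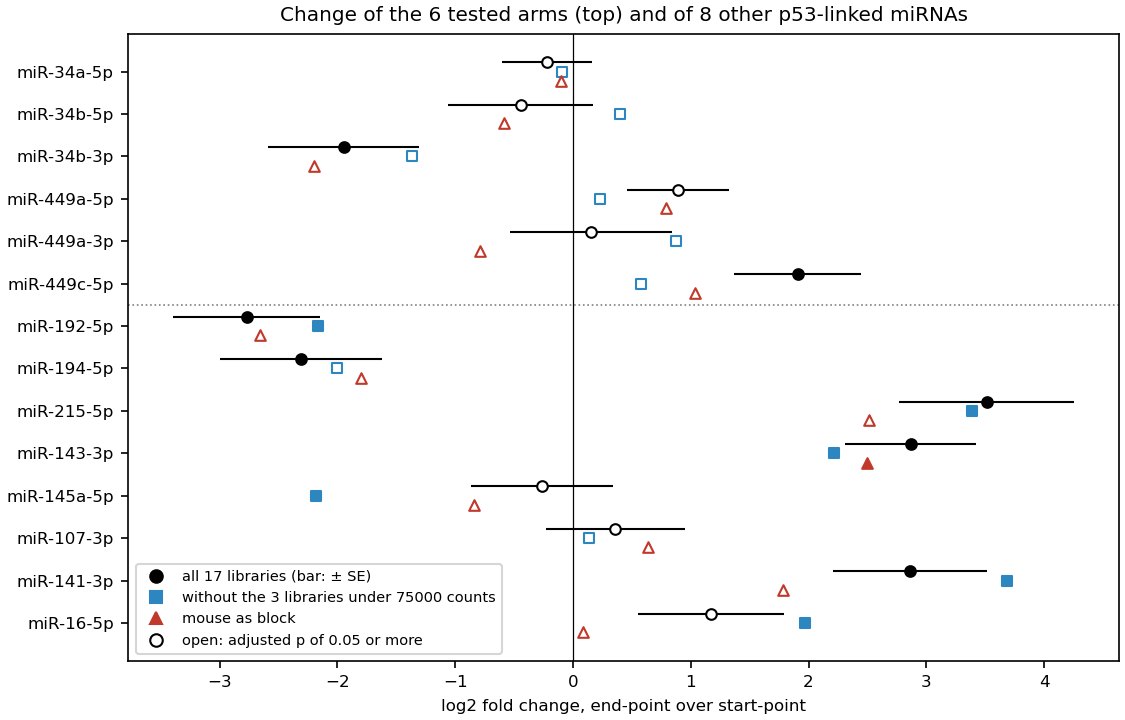
Log2 fold change of end-point over start-point for the 6 tested arms and 8 other p53-linked miRNAs, with all libraries (circles, bars are SE), without the 3 libraries under 75000 counts (squares) and with mouse as a block (triangles), filled where the edgeR adjusted p was under 0.05. Both called arms, miR-34b-3p at -1.95 and miR-449c-5p at 1.91, have open symbols in the other settings, and miR-143-3p alone is filled in all 3.

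By rank over the 17 libraries, the smRNA most like miR-34b-3p was miR-30a-5p, with a Spearman correlation of log2 CPM of 0.90, followed by miR-370-3p with 0.87 and miR-298-5p with 0.79. The median over all smRNAs was 0.11. Within the 10 start-point libraries these were 0.84, 0.67 and 0.71, and within the 7 end-point libraries 0.90, 0.89 and 0.68. None of the 3 was called between time points, with edgeR adjusted p from 0.0832 to 0.245. For miR-449c-5p they were miR-551b-5p at 0.88, miR-127-3p at 0.88 and miR-7210-5p at 0.82, with a median over all smRNAs of -0.08. Within the start-point libraries these were 0.75, 0.81 and 0.59, and within the end-point libraries 1, 0.89 and 0.71. The first 2 were called higher at the end-point, where 17.4% of all smRNAs tested were. All 3 were picked by correlation over both time points with an arm called higher, which favours such calls. Values of a library share its depth and scaling, and these correlations are descriptions.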

How the data were processed

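Small RNA libraries were made from fecal exosomal RNA with the QIAseq miRNA kit, which adds molecular identifiers, per the labels' protocols. The deposited table holds raw read counts per smRNA and library. The build GRCm38 and bcl2fastq are named in the submitters' processing notes. The aligner, counter, annotation and any use of the identifiers are not given in the sources used here, so PCR copies may add to the spread. Every listed smRNA reached at least 10 counts in some library.

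Counts were tested across the whole table with edgeR 4.0.16 in R 4.3.3 (quasi-likelihood F-test with the bias-adjusted deviance, TMM factors, filterByExpr by time point, Benjamini-Hochberg adjustment). SEs are the log2 fold change over the root of F. CPM are counts over library totals, without TMM factors, which fold changes include. Alternatives used DESeq2 1.42.0 size factors or its Wald test, library totals, no filter, a mouse block, male libraries, the mouse 1 libraries summed, and fewer libraries. Arm ratios used exact permutation of libraries. In simulated counts 1226 smRNAs passed the filter. Among these the time point test recovered 71.6% of 95 changes of 2 log2 units and 98.9% of 87 changes of 3 log2 units, with 4.35% of calls false. Changes lost to the filter were not counted as missed. The changed smRNAs were drawn at random from all those tested, so recovery is an average over high and low levels. It was not computed for these arms. The simulated libraries were independent, without shared mice.

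Groups come from the time point label and pairing from the mouse label. For the 7 same-mouse pairs, deviations from the time point mean correlated on average at 0.0943. P-values measure the spread between libraries, of which 2 at the end-point carry the mouse 1 label. Members and lists were chosen with earlier results of these data known. Named are all members, called members of the p53-linked list, and the 3 smRNAs most correlated with each called arm. Of the marker lists and of the miRNAs reported to target p53 only some members are named above. Markers called but not described there were miR-200b-3p, higher (3.28, edgeR adjusted p 0.0260), and miR-375-3p (-2.30, 0.0213) and miR-31-5p (-2.30, 0.0141), both lower. The counts of other lists under alternatives were added after seeing the data, as was naming miR-449c-3p.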

Additional observations from a re-analysis of the deposited data

Results flagged for a closer look

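Dixon's criterion at 95% was applied to 24 groups of values. In 4 of them a library's gap to its nearest neighbour was large for the group's range. Chance alone gives about 1 in 20 only where values are normally distributed. CPM of small counts need not be, and the groups share libraries, so 4 of 24 is a description and not an excess over chance. All 4 flagged values were the highest end-point value. They were 1342 CPM of miR-34b-3p in end-point library 5 (next 495 CPM), 402 CPM of miR-449a-3p in library 4 (next 157 CPM), 1790 CPM of miR-449c-5p in library 1 (next 157 CPM) and 152 CPM of miR-449c-3p in library 5 (next 53 CPM). Library 5 was thus high for both miR-34b-3p and miR-449c-3p, and came from mouse 7, which had 2595 CPM of miR-34b-3p at the start-point. Mice 1 and 3 had more miR-34b-3p then, at 3742 and 4126 CPM. Start-point miR-449c-3p of mouse 7 was 111 CPM, beside a group median of 130 CPM.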

How the results depend on the processing

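The number of smRNAs called between time points, 428, became 104 with mouse as a replicate block and 211 in male libraries only, and ran from 365 to 463 when single libraries were left out. Library totals only changed the split of calls to 153 higher and 327 lower, from 221 and 207. For sex the DESeq2 Wald test called 35 smRNAs, and leaving out single libraries called 0 each time. For the interaction, DESeq2 and leaving out the libraries under 75000 counts called 2 each, and leaving out single libraries 0 to 1. Of the members, miR-34b-3p kept its direction in all 25 alternatives and its call in 20, and miR-449c-5p kept its direction in all 25 and its call in 22. The sign of miR-34b-5p changed to 0.40 without the libraries under 75000 counts. That of miR-449a-3p changed to -0.61 with library totals only and -0.79 with the replicate block, and ran from -1.10 to 0.37 over single libraries left out. The arm difference of miR-34b reached 1.89 (adjusted exact permutation p 0.0719) without the shallow libraries and ran from 0.39 to 1.22 over single libraries left out, none past the threshold. That of miR-449a ran from 1.04 to 2.46, past the adjusted threshold in 1 of 17, without end-point library 4 (0.00425). The cause of these changes was not tested. The planned arm comparisons of miR-34a and miR-34c were not run, since 1 arm of each was analysed here. In the shallowest library, levels under 92.8 CPM cannot be told from 0.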
